A study of Mus musculus with 93 samples.

Results

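The solute carriers described here are the genes whose symbol begins with Slc and a digit, measured in mouse liver 6 h after a single oral dose of a synthetic triglyceride or of a synthetic PPARα agonist. Members were taken from the platform annotation by symbol alone, from probesets with 1 symbol, leaving out Slc25a20, Slc22a5, Slc27a1, Slc27a2, Slc27a4, Slc10a1, Slc2a2 and Slc16a1. This gave 124 genes on 186 probesets, of 6661 genes on 10279 probesets with 1 symbol. Of these, 120 genes on 178 probesets varied enough between arrays to be tested, of 6234 genes on 9299 probesets. The genes Slc30a6, Slc17a5, Slc25a16 and Slc27a5 did not pass that filter and are not described further.

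Livers came from male wild-type (WT) mice of strain 129S1/SvImJ and male PPARα-null mice of strain 129S4/SvJae, so that a difference between genotypes is also a difference between substrains. All mice were fasted for 4 h and received 400 µl by gavage, and each of the 93 arrays holds 1 labelled liver sample. In a first run of 56 arrays, 0.5% carboxymethyl cellulose served as control (3 WT and 5 PPARα-null). The agonists WY14643 (4 WT and 5 PPARα-null) and fenofibrate (5 and 5) were given in it at 10 mg/ml. The triglycerides of the first run carried oleic acid (C18:1, 5 and 5), eicosapentaenoic acid (C20:5, 5 and 4) or docosahexaenoic acid (C22:6, 5 and 5). A later run of 37 arrays had its own controls, labelled control2 (4 and 4), and triglycerides of linoleic acid (C18:2, 4 and 5), linolenic acid (C18:3, 5 and 5) and a C10:0 fatty acid (5 and 5). Control and WY14643 mice of the first run were labelled 12 to 20 weeks of age and all others 8 to 24 weeks. Each treatment was compared with the control of its own run and genotype.

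Solute carriers are membrane proteins that move ions, metals, sugars, amino acids, nucleotides, vitamins and metabolites across the plasma membrane or across the membranes of mitochondria, lysosomes and the secretory pathway, either down a gradient or coupled to a second solute. In the liver they bring in amino acids for urea and glucose formation, exchange substrates between cytosol and mitochondria, and handle iron, zinc and organic anions. PPARα is a nuclear receptor that is activated by fatty acids and fibrates and binds DNA with RXR at paired copies of a short hexamer, and it raises many genes of fatty acid oxidation.

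The members were grouped by transporter family into amino acid carriers (18 genes), mitochondrial carriers (26), metal carriers (20), nucleoside and nucleotide sugar carriers (16), inorganic ion carriers (11), organic ion, drug and bile acid carriers (9), sugar carriers (8), vitamin and cofactor carriers (5), monocarboxylate carriers (4), carriers of other small molecules (4), 1 fatty acid carrier and 2 scaffold proteins. The scaffold proteins, Slc9a3r1 and Slc9a3r2, bear the symbol but are not transporters themselves. Classes follow the family and not the solute or membrane of each member, so the peroxisomal carrier Slc25a17 counts as mitochondrial. Likewise the purine nucleobase carrier Slc43a3 counts among the amino acid carriers. Values are log2 signals of single probesets, listed by replicate number. The probeset with the highest mean signal stood for a gene with several, and a gene counted as changed when any of its probesets passed an adjusted p of 0.05. Levels of different probesets cannot be set against each other.

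Before the treatments, the arrays themselves were examined. One Ppara probeset (1457721_at) read 8.10 to 9.52 over the 45 WT arrays and 5.94 to 7.93 over the 48 PPARα-null arrays, without overlap, while the other Ppara probesets overlapped between genotypes. Summed over 9 hepatocyte markers, the linear signal lay between 68974 and 82400 on every array of the first run and between 98962 and 114561 on every array of the later run. In untreated WT groups a single array stood apart for several carriers: replicate 2 of the first run and replicate 1 of the later run read high for Slc41a2, Slc39a14, Slc16a10 and Slc3a1. Deviations of an array were taken from the median of the other arrays of its group. Of all members, 16 lay more than 1 log2 unit from that median on WT control2 replicate 1 and 12 on WT control replicate 2, and this number reached 18 on PPARα-null C18:2 replicate 4. Of 267 calls of single genes by the probeset that stood for the gene, over all comparisons, 104 held whichever array was left out. The other 163 were lost with at least 1, and such losses are given beside the genes named. Calls that rested only on another probeset of a gene were not followed in this way.

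With WY14643 in WT liver, the carriers fell more often than they rose. Of 120 genes, 38 were lower and 16 higher, against 17.5% lower and 12.9% higher among all genes tested. The median log2 change of the members was -0.30, and that of all genes was -0.08. Fenofibrate lowered 20 members and raised 10, where 7.91% of all genes were lower and 7.88% higher, with medians of -0.17 and -0.05. With any single array left out, the 54 members changed by WY14643 became 40 to 51 and the 30 changed by fenofibrate 25 to 28. The hepatocyte marker sum was 69171 to 74649 with WY14643 and 74726 to 77023 in its controls, with Cps1 and Ahsg lower among 9 markers, and its part in the falls was not tested. In whole liver, fewer cells of a type and less RNA per cell cannot be told apart.

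**Figure D1:**
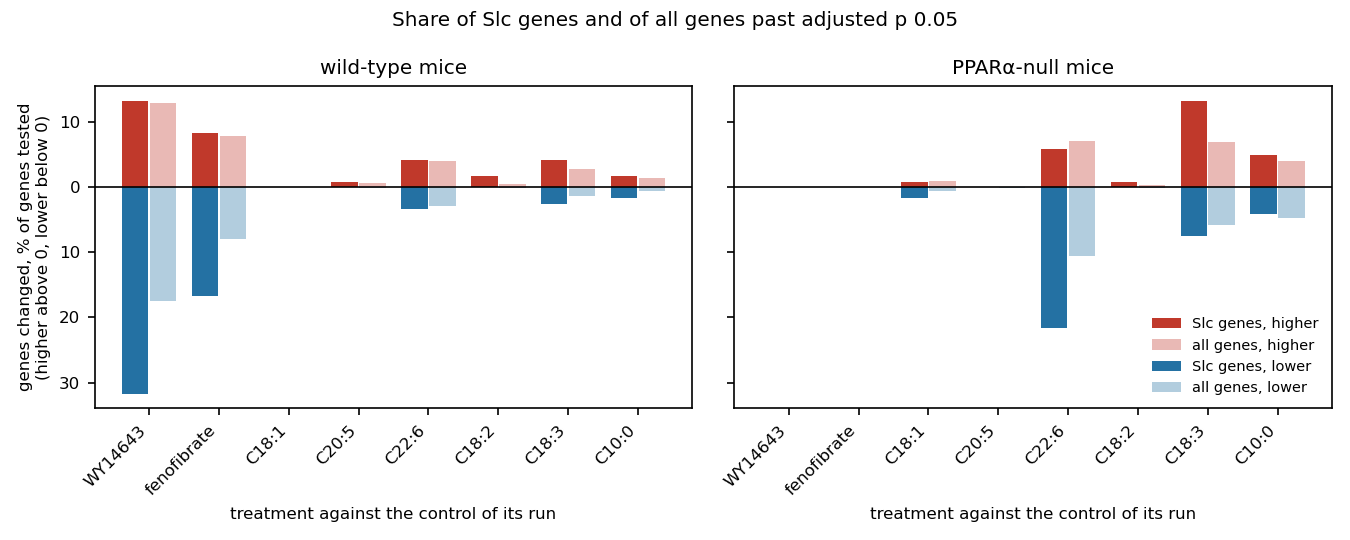
Share of the 120 Slc genes (dark bars) and of all 6234 genes (pale bars) past an adjusted p of 0.05, in percent, for each treatment against the control of its run; genes higher are drawn above 0 and genes lower below 0. In WT liver the dark bars for WY14643 and fenofibrate reach further below 0 than the pale ones, and in PPARα-null liver both agonists show no Slc gene.

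The amino acid carriers made up the largest set of falls. WY14643 lowered 10 of 18 and raised 1 (17.5% and 12.9% of all genes), with a median log2 change of -0.40. Fenofibrate lowered 7 and raised 1 (7.91% and 7.88% of all genes), with a median of -0.33. Slc1a2, a glutamate transporter of the plasma membrane, read 6.11, 6.62 and 6.22 on the WT control arrays, 3.51, 4.70, 3.31 and 4.72 with WY14643, and 5.44, 5.24, 3.94, 4.85 and 4.81 with fenofibrate. Every treated array lay below every control array. The change of Slc1a2 was -2.25 ± 0.32 (log2, SE; 4.77-fold, adjusted p = 6e-08 in the limma fit) for WY14643 and -1.46 ± 0.31 (2.75-fold, adjusted p = 0.00032) for fenofibrate.

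Slc7a2, a carrier of arginine, lysine and ornithine, also fell with both agonists, by similar amounts. It read 11.49, 11.05 and 11.67 in controls, 9.86, 10.79, 10.33 and 10.45 with WY14643, and 10.37, 10.59, 10.02, 10.34 and 10.71 with fenofibrate. Neither agonist group overlapped the controls, and the changes were -1.04 ± 0.24 (SE; adjusted p = 0.00041) and -0.99 ± 0.23 (adjusted p = 0.00094, limma). For Slc3a1, the heavy chain of the carrier of cystine and dibasic amino acids, controls read 7.79, 8.65 and 8.13, and the WY14643 arrays 6.78, 6.84, 6.83 and 6.83. That was a fall by 1.37 ± 0.37 on the log2 scale (adjusted p = 0.0031, limma), below every control array. Fenofibrate lowered Slc3a1 by less, -1.16 ± 0.35 (adjusted p = 0.017), but without WT control replicate 2 this was -0.93 and missed the threshold (adjusted p = 0.14).

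Other amino acid carriers that fell with both agonists were Slc43a1, a carrier of large neutral amino acids (-1.45 with WY14643 and -1.54 with fenofibrate, from a dim probeset of 4.06 to 5.20 in controls), Slc38a3, a glutamine transporter (-0.57 for WY14643), Slc38a4, a sodium-coupled neutral amino acid transporter (-0.57 and -0.39), and Slc66a1, a lysosomal exporter of cationic amino acids (-0.88 and -0.85). A second probeset of Slc38a3 fell further with WY14643, by 1.79 (adjusted p = 4.5e-07, limma). Without WT control replicate 1, the WY14643 value of Slc43a1 (-1.21, adjusted p = 0.052) and the fenofibrate value of Slc38a4 (-0.32, adjusted p = 0.15) missed the threshold. The taurine transporter Slc6a6 fell with WY14643, by 1.10 (adjusted p = 0.00029), from 7.5, 6.76 and 7.72 to 6.44, 6.08, 6.29 and 6.11. On the fenofibrate arrays Slc6a6 read 6.90, 6.82, 7.0, 6.83 and 7.38, within the control range, and the direct comparison of WY14643 with fenofibrate gave -0.76 (95% interval -1.18 to -0.33, adjusted p = 0.044), which was lost whichever of the 9 arrays was left out.

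The 1 amino acid carrier that rose was Slc6a9, the glycine transporter GlyT1. Its WT controls read 6.52, 5.69 and 6.60, WY14643 arrays 7.25, 8.19, 7.74 and 8.00, and fenofibrate arrays 7.32, 7.55, 6.89, 7.42 and 7.65. All treated arrays stood above all controls. The rise was 1.53 ± 0.28 with WY14643 (SE; 2.88-fold, adjusted p = 1.4e-05) and 1.10 ± 0.27 with fenofibrate (2.14-fold, adjusted p = 0.0021, limma). Without WT control replicate 2, the lowest of the controls, the fenofibrate value of Slc6a9 was 0.81 and missed the threshold (adjusted p = 0.072).

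Among the monocarboxylate carriers, Slc16a5 (MCT6) and Slc16a10, a carrier of aromatic amino acids, moved in opposite directions. Slc16a5 read 2.52, 3.54 and 2.97 in WT controls and 5.48, 6.54, 5.76 and 6.46 with WY14643, a rise of 3.05 ± 0.54 (SE; 8.27-fold, adjusted p = 8.1e-06, limma). With fenofibrate it read 4.81, 3.33, 3.84, 4.50 and 4.49, which overlapped the controls and missed the threshold (1.18 ± 0.52, adjusted p = 0.13). The agonists differed directly for Slc16a5, by 1.86 (95% interval 0.91 to 2.82, adjusted p = 0.023), but without WY14643 replicate 2 this was 1.71 (adjusted p = 0.12). Slc16a10 read 7.15, 8.60 and 7.17 in controls, 5.62, 5.96, 5.56 and 6.55 with WY14643, and 6.13, 6.34, 6.07, 5.97 and 6.20 with fenofibrate. Both groups lay below all controls, and Slc16a10 changed by -1.71 ± 0.26 (adjusted p = 2.5e-07) and -1.5 ± 0.25 (adjusted p = 6e-06).

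The mitochondrial carriers moved both ways. WY14643 raised 6 of 25 and lowered 5 (12.9% and 17.5% of all genes), with a median of 0.05. Fenofibrate raised 4 and lowered 1 (7.88% and 7.91% of all genes). Slc25a42, which carries coenzyme A and ADP into mitochondria, had the smallest adjusted p of the value probesets raised. It read 7.76, 7.32 and 7.59 in WT controls, 9.25, 9.27, 9.30 and 9.33 with WY14643, and 8.92, 8.81, 8.81, 8.70 and 8.48 with fenofibrate. The 3 groups did not overlap, in the order control, fenofibrate, WY14643. Changes were 1.73 ± 0.18 (SE; 3.32-fold, adjusted p = 9.4e-12) and 1.19 ± 0.18 (2.28-fold, adjusted p = 4.3e-07, limma), while the direct comparison of the agonists missed the threshold (0.54, 95% interval 0.22 to 0.86, adjusted p = 0.056).

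The promoters of Slc25a42, raised by both agonists, and of Slc37a4, lowered by both, are shown as the members of each direction that the WT results turn on and that carry a sequence in the RefSeq table (GRCm38.p6, 250 bases before the start and 50 from it, 5′ to 3′ on the gene's strand). Slc25a42 lies on the minus strand at chr8:70212232-70212531 and Slc37a4 on the plus strand at chr9:44396696-44396995. Capitals mark the hexamer AGGTCA.
Slc25a42: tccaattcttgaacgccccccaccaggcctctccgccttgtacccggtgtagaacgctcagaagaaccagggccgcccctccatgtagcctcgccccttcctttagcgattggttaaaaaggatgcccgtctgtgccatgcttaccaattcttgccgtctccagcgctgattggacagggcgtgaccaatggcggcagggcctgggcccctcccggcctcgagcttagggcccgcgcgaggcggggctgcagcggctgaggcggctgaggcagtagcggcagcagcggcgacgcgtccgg
Slc37a4: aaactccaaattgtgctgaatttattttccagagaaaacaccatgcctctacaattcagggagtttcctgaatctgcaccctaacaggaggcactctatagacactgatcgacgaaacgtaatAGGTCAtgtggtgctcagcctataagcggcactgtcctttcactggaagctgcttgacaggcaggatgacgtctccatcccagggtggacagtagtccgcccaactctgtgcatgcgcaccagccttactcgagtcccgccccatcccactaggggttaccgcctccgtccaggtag
The Slc37a4 window held 1 AGGTCA, 127 bases before the start, and the Slc25a42 window none on either strand. For a gene with several windows, the window with most copies of AGGTCA was the one shown. A match in a window shown was therefore favoured by that choice and is no evidence about the gene. Over all members, 98 genes had 139 promoter windows in the table, and 27 of these (19.4%, 22 genes) held AGGTCA, against 5340 of 32851 windows of all genes (16.3%). The paired motif, 2 direct copies of AGGNCA with 1 base of any kind between them, can overlap with AGGTCA and was in 0 of the 139 and in 0.381% of all windows. Both motifs were searched on both strands, and the matches describe these letters in these windows only.

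Slc25a30, a mitochondrial carrier of the inner membrane, read 8.11, 7.30 and 7.11 in WT controls and 9.58, 9.89, 9.65 and 9.95 with WY14643. On fenofibrate arrays it read 9.68, 9.76, 9.66, 9.59 and 9.19. Every agonist array was above every control, and the rises were 2.26 ± 0.47 (SE; 4.78-fold, adjusted p = 0.00013) and 2.07 ± 0.45 (4.20-fold, adjusted p = 0.00052, limma). The agonists differed by 0.19 for Slc25a30, with an interval of -0.64 to 1.01. Slc25a46, a protein of the outer mitochondrial membrane, also rose with both (0.85 and 0.60), as did Slc25a37, an iron carrier (0.67 and 0.55). Rises with WY14643 that fenofibrate did not show past the threshold were those of Slc25a32, a carrier of folate and FAD (0.95 ± 0.29, adjusted p = 0.0098, limma), and of the peroxisomal carrier Slc25a17 (0.67). Without WT control replicate 2, these became 0.72 (adjusted p = 0.11) and 0.53 (adjusted p = 0.15), and Slc25a37 became 0.43 (adjusted p = 0.15) with WY14643 and 0.31 (adjusted p = 0.40) with fenofibrate.

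Falls among mitochondrial carriers were led by Slc25a15, the ornithine carrier of the urea cycle. It read 11.04, 11.47 and 11.11 in WT controls, 10.08, 10.14, 10.25 and 10.13 with WY14643, and 10.48, 10.40, 10.52, 10.48 and 10.43 with fenofibrate. The groups were separate, and Slc25a15 changed by -1.06 ± 0.14 (SE; adjusted p = 1.5e-08) and -0.75 (adjusted p = 3.7e-05, limma). Slc25a12, an aspartate and glutamate carrier, fell by 0.41 with WY14643 (adjusted p = 0.0055). Slc25a28, a mitochondrial iron carrier, fell by 0.56 and Slc25a45 by 0.77, while Slc25a44, a carrier of branched-chain amino acids, passed by 1 other probeset alone (1433448_at, -0.53, adjusted p = 0.049). Slc25a12 (-0.33, adjusted p = 0.062) and Slc25a45 (-0.57, adjusted p = 0.11) missed the threshold without WT control replicate 2.

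**Figure D2:**
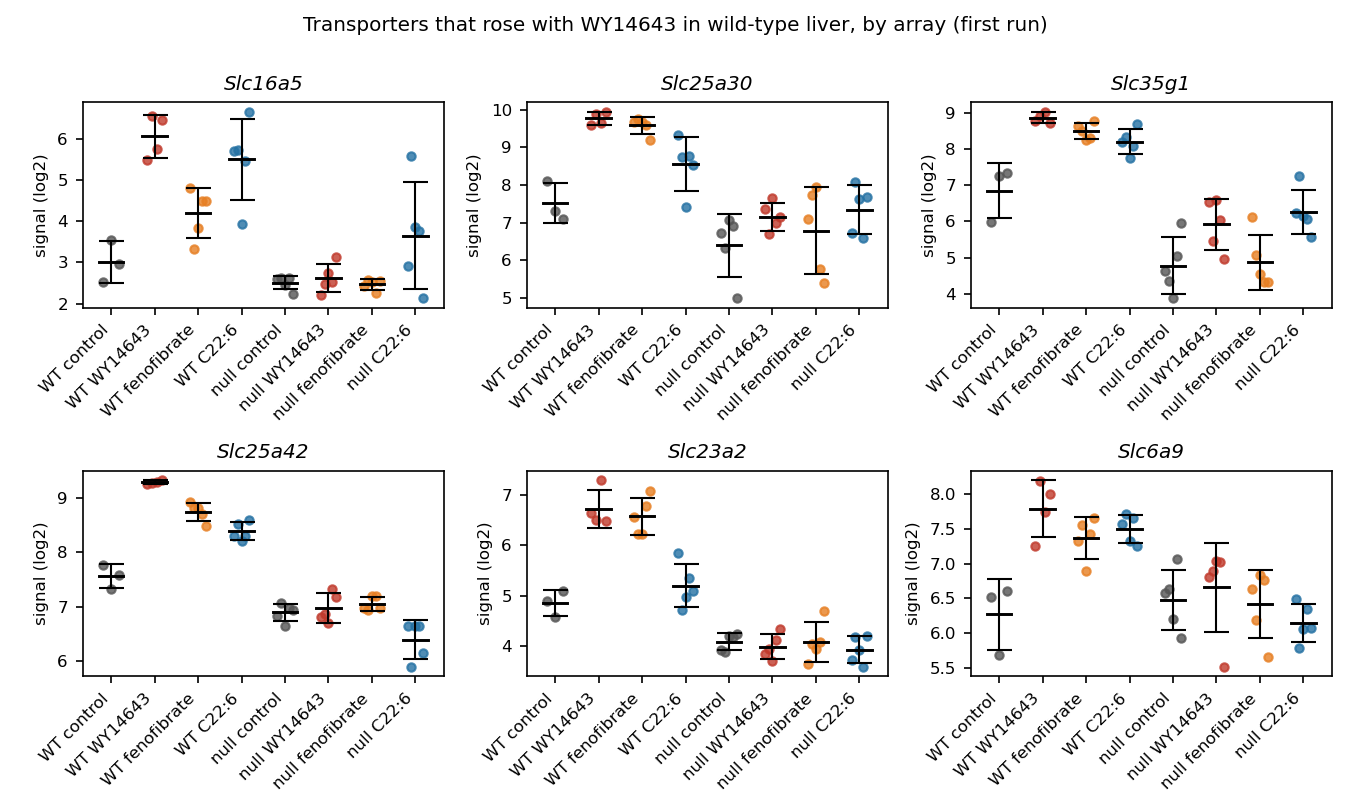
Log2 signal of Slc16a5, Slc25a30, Slc35g1, Slc25a42, Slc23a2 and Slc6a9 on each array of the first run, for WT and PPARα-null mice given control, WY14643, fenofibrate or C22:6; points are arrays, lines are group means and bars are ±1 SD. WT arrays with WY14643 stand above WT controls in all 6 genes, while PPARα-null arrays with WY14643 overlap their controls.

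Of 19 metal carriers, 7 changed with WY14643 (median -0.34) and 5 with fenofibrate, and each of these was lower. Among all genes, 17.5% were lower with WY14643 and 7.91% with fenofibrate. Slc41a2, a magnesium transporter, showed the largest fall of any member and also the widest spread among controls, which read 6.22, 9.62 and 7.35. With WY14643 it read 4.13, 3.92, 4.08 and 4.15, near the bottom of its range and below every control, a change of -3.66 ± 0.68 (SE; 12.6-fold, adjusted p = 1.7e-05, limma). With fenofibrate it read 6.41, 4.38, 6.08, 4.60 and 5.06, which overlapped the lowest control, and the change of -2.42 ± 0.65 (adjusted p = 0.0057) was -1.48 (adjusted p = 0.19) without WT control replicate 2.

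Slc39a14, an importer of zinc, iron and manganese, read 8.64, 10.16 and 8.69 in WT controls, 7.43, 7.85, 7.96 and 7.79 with WY14643, and 8.22, 7.90, 7.49, 7.59 and 8.30 with fenofibrate. All agonist arrays lay below the controls. The changes were -1.40 ± 0.29 (SE; adjusted p = 8.6e-05) and -1.26 ± 0.27 (adjusted p = 0.00049, limma), and the fenofibrate value became -0.76 (adjusted p = 0.08) without WT control replicate 2. Among the other metal carriers, the zinc transporters Slc30a5 (-0.77 and -0.86), Slc30a7 (-0.42 and -0.41) and Slc39a7 (-0.49 and -0.46) fell with WY14643 and with fenofibrate. Slc39a4, an importer of zinc (-0.56), and Slc31a1, an importer of copper (-0.49), fell with WY14643. All of these calls, with either agonist, were lost without WT control replicate 2, with WY14643 values of -0.32 for Slc30a5, -0.40 for Slc30a7, -0.31 for Slc39a7, -0.45 for Slc39a4 and -0.39 for Slc31a1 (adjusted p of 0.28, 0.064, 0.22, 0.17 and 0.061). The iron exporter Slc40a1 was at 0.05 with WY14643 (adjusted p = 0.90).

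Of the 8 sugar carriers, WY14643 lowered 1 and raised 1 (17.5% and 12.9% of all genes). The one lowered was Slc37a4, the glucose-6-phosphate translocase that feeds glucose production in the endoplasmic reticulum. It read 10.06, 10.20 and 10.35 in WT controls, 8.85, 9.13, 9.14 and 8.87 with WY14643, and 9.23, 9.12, 8.77, 9.19 and 9.51 with fenofibrate. Controls were well separated from both agonists, and Slc37a4 changed by -1.21 ± 0.15 (SE; 2.31-fold, adjusted p = 2e-09) and -1.04 ± 0.15 (2.06-fold, adjusted p = 1.1e-07, limma). Slc5a3, an inositol carrier, rose with WY14643 (1.37 ± 0.45, adjusted p = 0.016) from a dim 3.35, 2.54 and 3.68 to 3.86, 4.99, 3.98 and 5.38, but was at 1.04 (adjusted p = 0.13) without WT control replicate 2.

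Nucleoside and nucleotide sugar carriers counted 7 lower and 3 higher of 16 with WY14643 (median -0.37), against 17.5% and 12.9% of all genes. Slc29a1, an equilibrative nucleoside transporter, fell from 8.89, 8.63 and 9.07 to 7.60, 7.73, 7.49 and 7.45 with WY14643 and to 7.64, 7.87, 7.45, 7.82 and 8.21 with fenofibrate. No treated array reached a control, and the changes were -1.29 ± 0.16 (SE; adjusted p = 1.6e-09) and -1.06 ± 0.15 (adjusted p = 2.9e-07, limma). Slc35d2, a Golgi nucleotide sugar carrier, fell with WY14643 (-1.27 ± 0.26, adjusted p = 8.2e-05), and the agonists differed directly for it (-0.85, 95% interval -1.30 to -0.39, adjusted p = 0.033). Without WY14643 replicate 4 this difference of Slc35d2 was -0.74 (adjusted p = 0.13).

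Rising in the same class were Slc35g1, a membrane protein placed here by its family, Slc35a3, a carrier of UDP-N-acetylglucosamine, and Slc35c1, a carrier of GDP-fucose. Slc35g1 read 5.98, 7.24 and 7.34 in WT controls, 8.78, 8.92, 9.03 and 8.71 with WY14643, and 8.62, 8.50, 8.25, 8.29 and 8.77 with fenofibrate. Agonist arrays were all above controls, with rises of 2.01 ± 0.45 (SE; 4.02-fold, adjusted p = 0.00036) and 1.64 ± 0.43 (3.11-fold, adjusted p = 0.005, limma). The fenofibrate value was 1.20 (adjusted p = 0.10) without WT control replicate 1, the lowest for Slc35g1. Slc35a3 rose by less, 0.55 and 0.34, with every agonist array above the controls, and its fenofibrate value was 0.27 (adjusted p = 0.11) without WT control replicate 3. Slc35c1 rose with WY14643 by 0.73 (adjusted p = 0.039), overlapping the controls, and was at 0.34 (adjusted p = 0.48) without the same array.

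The vitamin C transporter Slc23a2 read 4.89, 4.57 and 5.09 in WT controls. With WY14643 it read 6.65, 6.50, 7.30 and 6.49, and with fenofibrate 6.56, 6.22, 6.23, 6.79 and 7.08. Both groups were above all controls, by 1.88 ± 0.22 (SE; 3.69-fold, adjusted p = 2e-10) and 1.72 ± 0.21 (3.30-fold, adjusted p = 2.5e-09, limma). No other carrier of the 5 for vitamins and cofactors changed with an agonist.

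Of the inorganic ion carriers, 3 of 10 fell and 1 rose with WY14643 (17.5% and 12.9% of all genes). Slc8b1, the sodium and calcium exchanger of mitochondria, read 6.91, 7.10 and 7.03 in WT controls, 4.77, 5.70, 5.64 and 5.45 with WY14643, and 5.48, 6.05, 5.68, 5.48 and 5.91 with fenofibrate. The ranges were far apart, and the changes were -1.62 ± 0.24 (SE; adjusted p = 2.2e-07) and -1.29 ± 0.23 (adjusted p = 3e-05, limma). The phosphate and urate carriers Slc17a1 (-1.07) and Slc17a3 (-0.81) fell with WY14643, and the bicarbonate cotransporter Slc4a4 rose with both (0.88 and 0.61). Among organic ion carriers, Slc22a23, a member without a known substrate, rose from 8.26, 7.76 and 7.92 to 8.76, 8.76, 8.91 and 8.66 with WY14643 and to 8.90, 8.80, 8.77, 8.67 and 8.92 with fenofibrate (0.79 and 0.83, both separate from controls). The dicarboxylate carrier Slc13a3 fell with WY14643 by 1.14 (adjusted p = 0.014), and Slc22a18 fell with fenofibrate by 0.36 (adjusted p = 0.045, limma). Single controls decided several of these: Slc17a1 was -0.86 (adjusted p = 0.15) without replicate 3, Slc13a3 -1.01 (adjusted p = 0.069) without replicate 2, and with fenofibrate Slc4a4 was 0.43 (adjusted p = 0.16) and Slc22a18 -0.24 (adjusted p = 0.32) without replicate 1. The scaffold protein Slc9a3r1 (NHERF1) fell with WY14643 by 1.18 ± 0.17 (adjusted p = 4.8e-08).

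**Figure D3:**
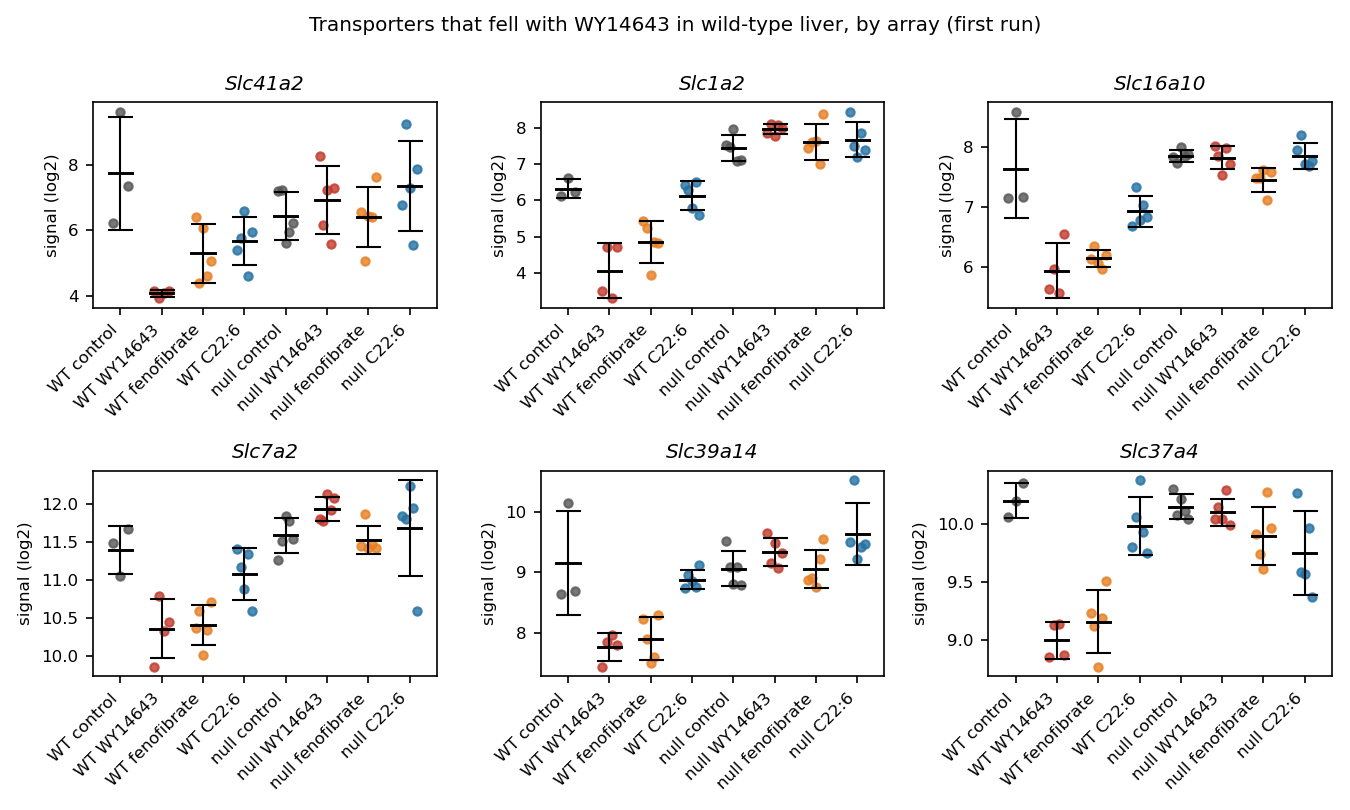
Log2 signal of Slc41a2, Slc1a2, Slc16a10, Slc7a2, Slc39a14 and Slc37a4 on each array of the first run, for WT and PPARα-null mice given control, WY14643, fenofibrate or C22:6; points are arrays, lines are group means and bars are ±1 SD. In WT mice the WY14643 arrays lie below all controls in each gene, and 1 control array stands high in Slc41a2, Slc16a10 and Slc39a14.

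In PPARα-null liver, neither agonist changed a member at an adjusted p under 0.05. The limma counts at an unadjusted p under 0.05 were 12 with WY14643 and 9 with fenofibrate (8.36% and 9.35% of all genes), and among all genes 0% were called in either direction with WY14643 and 0.0962% higher and 0.016% lower with fenofibrate. Slc25a42 read 6.84, 7.07, 6.65, 6.97 and 6.94 in PPARα-null controls and 6.81, 6.86, 6.70, 7.32 and 7.19 with WY14643. Slc1a2 read 7.51, 7.46, 7.97, 7.07 and 7.12 in those controls and 7.85, 8.11, 7.77, 8.08 and 7.99 with WY14643. Slc37a4 read 10.30, 10.08, 10.22, 10.11 and 10.04 and, with WY14643, 10.04, 10.15, 10.04, 10.29 and 9.99. All 3 pairs of groups overlapped. The member nearest to the threshold with WY14643 was Slc35g1, with a change of 1.14 (adjusted p = 0.43).

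The difference between the responses of the genotypes was tested as an interaction, PPARα-null minus WT. For WY14643, 28 members were positive, meaning less lowered or more raised in PPARα-null liver, and 9 negative, against 10.9% and 8.57% of all genes. For fenofibrate, 11 were positive and 5 negative (3.95% and 4.72% of all genes). The most negative for WY14643 were Slc16a5 (-2.93 ± 0.70, SE, adjusted p = 0.0016), Slc23a2 (-1.98), Slc25a42 (-1.65) and Slc6a9 (-1.35; -1.06, adjusted p = 0.054, without WT control replicate 2), and for Slc25a42 and Slc23a2 every array left out kept the call. The most positive were Slc41a2 (4.12 ± 0.88, adjusted p = 0.00035), Slc1a2 (2.79, adjusted p = 6.8e-07), Slc8b1 (1.79), Slc16a10 (1.68) and Slc39a14 (1.68). Slc37a4 (1.16) and Slc29a1 (1.28) also differed. For fenofibrate the same test gave -1.73 for Slc23a2, -1.02 for Slc25a42, 1.64 for Slc1a2 and 1.36 for Slc8b1. The fenofibrate values of Slc16a10 (1.09), Slc39a14 (1.26) and Slc6a9 (-1.16) fell short without WT control replicate 2, at adjusted p of 0.30, 0.23 and 0.18 (limma).

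Among the triglycerides in WT liver, few carriers changed. With C22:6, 5 members rose and 4 fell (3.96% and 2.82% of all genes). C18:3 raised 5 and lowered 3 (2.73% and 1.32%), C10:0 raised 2 and lowered 2 (1.36% and 0.594%), and C18:2 raised 2 (0.529% and 0.0962%). C20:5 raised 1 (0.642% and 0.0481%). With C18:1 no member passed in the limma test, and 0% of all genes did, while 13 members had an unadjusted p under 0.05, as did 10.6% of all genes. C10:0 was the only saturated fatty acid, and counts from the 2 runs, which had different controls, are set side by side and not compared. The median change of the members was -0.13 with C22:6, that of all genes -0.03.

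Slc16a5 rose with C22:6, C18:3 and C10:0. In the first run it read 5.71, 5.73, 3.94, 5.47 and 6.66 with C22:6, all above the control arrays of 2.52 to 3.54, a rise of 2.49 ± 0.52 (SE; 5.62-fold, adjusted p = 0.0011, limma). In the later run it read 3.51, 3.45, 3.37 and 3.62 in WT controls, 4.78, 5.23, 5.96, 4.28 and 7.10 with C18:3, and 4.00, 6.84, 5.23, 5.11 and 5.99 with C10:0. Neither group overlapped the controls, with rises of 1.99 ± 0.48 (3.96-fold, adjusted p = 0.0075) and 1.95 ± 0.49 (3.86-fold, adjusted p = 0.022). Without C18:3 replicate 5 the first of these was 1.58 (adjusted p = 0.064), and without C10:0 replicate 2 the second was 1.60 (adjusted p = 0.10). C18:3 and C10:0 differed by 0.04 for Slc16a5, with an interval of -0.88 to 0.95.

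Slc25a42 rose with C22:6 to 8.31, 8.53, 8.20, 8.30 and 8.60, above every first-run control, by 0.83 ± 0.18 (SE; 1.78-fold, adjusted p = 0.0013, limma). With C18:3 it read 9.06, 8.84, 9.22, 8.78 and 9.32 against later-run controls of 8.25, 8.32, 8.70 and 8.14, a rise of 0.69 ± 0.16 (1.62-fold, adjusted p = 0.0054). With C18:1 it read 7.88, 7.56, 7.41, 7.33 and 7.80, among the controls. Slc6a9 rose with C22:6 to 7.57, 7.71, 7.32, 7.66 and 7.25 (1.23 ± 0.27, adjusted p = 0.0018) and with C18:3, from 6.66, 7.07, 7.80 and 7.05 to 8.40, 8.28, 8.60, 7.94 and 8.28 (1.16 ± 0.25, adjusted p = 0.002). All treated arrays of Slc6a9 exceeded their controls, but its C22:6 value was 0.94 (adjusted p = 0.066) without WT control replicate 2.

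Smaller rises were those of Slc35g1 with C22:6 (1.35, adjusted p = 0.048, limma), of Slc22a23 with C22:6 (0.59) and C20:5 (0.56, adjusted p = 0.033), and of the glucose transporter Slc2a1 with C18:3 (0.62, adjusted p = 0.021). Without WT control replicate 1 the Slc35g1 value was 0.91 (adjusted p = 0.34), and without replicate 2 the C22:6 value of Slc22a23 was 0.48 (adjusted p = 0.081) and its C20:5 value 0.45 (adjusted p = 0.25). Slc2a1 was at 0.54 (adjusted p = 0.11) without WT control2 replicate 1. The zinc exporter Slc30a1 rose with C18:2 by 0.72 ± 0.17 (SE; adjusted p = 0.029), from 7.69, 8.42, 8.46 and 8.21 to 9.04, 8.77, 8.81 and 9.04, and was at 0.55 (adjusted p = 0.27) without WT control2 replicate 1. For Slc45a3, a putative sugar carrier, a single probeset passed with C18:3 (1426664_x_at, 1.43, adjusted p = 0.043) and with C10:0 (1.55, adjusted p = 0.035). For Slc6a9 with C18:2 the second probeset passed (1431812_a_at, 1.06, adjusted p = 0.043), while the first was at 0.59 (adjusted p = 0.37). No member passed with C18:2 without WT C18:2 replicate 1, and none with C10:0 without WT C10:0 replicate 5. With 1 array left out, the C18:2 count moved more than 1.5-fold in 7 of 8 cases and the C10:0 count in 4 of 9.

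Falls with triglycerides in WT liver turned on few arrays. Slc41a2 read 5.40, 5.75, 6.58, 4.60 and 5.96 with C22:6 against first-run controls of 6.22, 9.62 and 7.35, and 4.18, 5.09, 4.36, 6.13 and 5.10 with C18:3 against later-run controls of 10.01, 6.42, 5.74 and 7.57. With C10:0 it read 5.99, 5.40, 4.88, 5.34 and 3.73. Each group overlapped its controls. The changes were -2.07 ± 0.65 (SE; adjusted p = 0.042), -2.46 ± 0.60 (adjusted p = 0.0081) and -2.37 ± 0.59 (adjusted p = 0.022, limma). Without the highest control of each run they were -1.13 (adjusted p = 0.45), -1.60 (0.17) and -1.51 (0.22). The C18:3 falls of Slc3a1 (-1.12) and Slc16a10 (-0.75) were likewise -0.76 (adjusted p = 0.30) and -0.39 (adjusted p = 0.49) without WT control2 replicate 1. Slc39a7 (-0.61), Slc38a3 (-0.42) and Slc9a3r1 (-0.53) fell with C22:6, and Slc35f5, an orphan of the nucleotide sugar carrier family, fell with C10:0 (-0.34, adjusted p = 0.044). These were lost as well, Slc39a7 (-0.43, adjusted p = 0.18) and Slc9a3r1 (-0.48, adjusted p = 0.14) without WT control replicate 2, Slc38a3 (-0.35, adjusted p = 0.19) without replicate 1, and Slc35f5 (-0.28, adjusted p = 0.20) without WT C10:0 replicate 5.

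Within a run, the dose in volume and the time were the same, so triglycerides were also compared directly, in 6 pairs in WT liver, beside the agonist pair. Adjusted p-values are over all probesets within each pair. C22:6 differed from C18:1 in 5 members, 4 higher and 1 lower (3.55% and 1.49% of all genes). These were Slc16a5 (2.03, 95% interval 1.14 to 2.93, adjusted p = 0.0021), Slc25a42 (0.79, 0.49 to 1.10, adjusted p = 0.0003), Slc22a23 (0.51, adjusted p = 0.0058), Slc6a9 by its second probeset (1431812_a_at, 0.78, adjusted p = 0.041) and the scaffold protein Slc9a3r2 (-0.81, adjusted p = 0.035, limma). The calls of Slc16a5, Slc25a42 and Slc22a23 held whichever array was left out, while that of Slc9a3r2 was lost in 8 of 10 cases, at -0.70 (adjusted p = 0.15) without WT C22:6 replicate 5. The C22:6 chain is longer than that of C18:1 and carries more double bonds.

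C20:5 differed from C18:1 in Slc22a23 (0.48, adjusted p = 0.023, limma) and in Slc29a1 (-0.61, adjusted p = 0.0062), where 1.32% of all genes were higher and 0.433% lower. Without WT C18:1 replicate 2 the Slc22a23 difference was 0.42 (adjusted p = 0.10). C22:6 against C20:5 gave 0 members past the threshold and 11 at an unadjusted p under 0.05 (8.68% of all genes; 0.0481% were higher and 0.016% lower by the adjusted p), although the interval for Slc16a5 was 0.28 to 2.07 and that for Slc25a42 0.09 to 0.70. C18:3 against C18:2 gave 0 members, with 5 unadjusted (3.96% of all genes), and 0% of all genes past the adjusted threshold. C18:3 against C10:0 and C18:2 against C10:0 also gave 0, with 10 and 16 unadjusted (6.16% and 9.62% of all genes) and 0.0321% and 0.016% of all genes lower by the adjusted p. For Slc16a5 the difference between C18:3 and C18:2 was 1.12 (0.17 to 2.07), and that between C18:2 and C10:0 was -1.08 (-2.05 to -0.11). The agonist pair gave 3 members past the threshold, Slc16a5, Slc35d2 and Slc6a6 (1.35% and 1.22% of all genes higher and lower). It was 0 without WY14643 replicate 2 or 4 or fenofibrate replicate 2 or 3, and at most 2 without any 1 array.

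In PPARα-null liver the carriers changed with some triglycerides. With C22:6, 26 members were lower and 7 higher, against 10.5% and 7.11% of all genes. The medians were -0.11 for the members and -0.03 for all genes. This count depended on single arrays: without PPARα-null C22:6 replicate 2 it was 8 in place of 33, and without replicate 3 it was 20. Members still called with every single array left out were Slc2a5, Slc12a7, Slc46a1, Slc44a1, Slc19a2, Slc38a3 and Slc11a1. When only the compared groups were fitted, with or without a replicate block, no member passed for C22:6 in PPARα-null liver. Slc2a5, the fructose transporter GLUT5, read 5.71, 6.19, 5.97, 5.43 and 5.76 in PPARα-null controls and 5.07, 3.22, 3.98, 5.36 and 4.83 with C22:6. All of the latter were lower, by 1.32 ± 0.28 (log2, SE; 2.5-fold, adjusted p = 0.0016, limma).

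Slc12a7, a potassium and chloride cotransporter, read 7.44, 7.19, 6.66, 7.05 and 7.26 in PPARα-null controls, 6.84, 5.83, 6.26, 6.53 and 5.86 with C22:6, and 6.51, 6.64, 5.62, 5.75 and 6.11 with C18:1. The C18:1 arrays were all below the controls and the C22:6 arrays overlapped them at 1 array. The changes were -0.85 ± 0.20 (SE; adjusted p = 0.0029) and -0.99 ± 0.20 (adjusted p = 0.0031, limma). The glutamine transporter Slc38a3 fell with C22:6 from 12.13, 12.08, 11.79, 11.94 and 11.89 to 11.68, 11.34, 11.53, 11.76 and 10.99, without overlap (-0.50, adjusted p = 0.0022). Slc46a1, a folate transporter (-0.63, adjusted p = 0.002), Slc19a2, a thiamine transporter (-0.53, adjusted p = 0.0036), and Slc44a1, a choline transporter (-0.54, adjusted p = 0.0026), fell by similar amounts. In the class of vitamin and cofactor carriers, 3 of 5 were lower with C22:6 (10.5% of all genes), with a median of -0.53.

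Other falls with C22:6 in PPARα-null liver included Slc2a9, a urate carrier (-1.16), Slc39a2, a zinc importer (-1.08), Slc25a23, a mitochondrial ATP-magnesium carrier (-0.85), Slc35d2 (-0.82) and Slc46a3 (-0.82), and each of these lost its call when replicate 2 of C22:6 was left out. Slc25a42 fell too, by 0.50 (adjusted p = 0.02, limma), from the control range of 6.65 to 7.07 to 6.65, 5.90, 6.65, 6.65 and 6.15, whereas it rose in WT liver. Slc37a4 fell by 0.40 (adjusted p = 0.024). Without replicate 2 the Slc25a42 value was -0.37 (adjusted p = 0.15), and without replicate 5 the Slc37a4 value was -0.30 (adjusted p = 0.11).

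Of the rises with C22:6 in PPARα-null liver, Slc11a1, the divalent metal transporter of macrophage phagosomes, was the one kept with every array left out. It read 4.27, 5.66, 6.04, 5.02 and 5.82 in controls and 6.33, 6.29, 7.67, 6.56 and 6.07 with C22:6, all above the controls, by 1.22 ± 0.26 (SE; 2.33-fold, adjusted p = 0.0018, limma). In WT liver Slc11a1 read 4.98, 5.36 and 5.16 in controls and 4.84, 4.91, 4.97, 4.91 and 5.12 with C22:6. Markers of Kupffer cells and macrophages moved with it: 8 of 13 were higher and 0 lower (7.11% and 10.5% of all genes), with a median change of 1.12. The defining marker Clec4f was up by 0.83. The median change of these markers in PPARα-null liver was also above 0 with WY14643 (0.55), fenofibrate (0.52), C18:1 (0.78) and C20:5 (0.30), with 0 called. Their summed signal was 550 to 4168 (median 2940) in PPARα-null controls and 3139 to 6011 (median 4707) with C22:6, and 1234 to 1729 in WT mice given C22:6. Against the same PPARα-null controls, the median sum was 2939 with WY14643, 2694 with fenofibrate, 3423 with C18:1 and 2887 with C20:5. By this measure WY14643, fenofibrate and C20:5 were not above the controls. No marker was at 0. The part of these cells in the rise of Slc11a1 was not tested. Slc35g1 (1.49, adjusted p = 0.0056), the phosphate transporter Slc20a1 (0.75) and the pyrimidine nucleotide carrier Slc25a33 (0.69) also rose, and Slc25a33 rose with C18:1 in the same genotype (0.97 ± 0.22, adjusted p = 0.013). With C22:6, Slc35g1 was at 1.24 (adjusted p = 0.054) without replicate 2, Slc20a1 at 0.48 (adjusted p = 0.20) without replicate 5 and Slc25a33 at 0.55 (adjusted p = 0.12) without control replicate 2. With C18:1, Slc25a33 was at 0.80 (adjusted p = 0.091) without control replicate 5.

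The genotypes differed in their response to C22:6 for 7 members, 2 positive and 5 negative (1.14% and 2.65% of all genes): Slc6a9 (-1.56, adjusted p = 0.0051, limma), Slc25a42 (-1.33, adjusted p = 0.00016), Slc12a7 (-1.06), Slc22a23 (-0.62), Slc25a46 (-0.50), Slc11a1 (1.44) and Slc41a2 (2.96). Without WT control replicate 2 the count was 1, and Slc25a42 was the call kept with every array left out. For C18:3, 3 members differed, 1 positive and 2 negative (0.545% and 0.85%): Slc12a7 (-1.13, adjusted p = 0.037), Slc25a42 (-0.95, adjusted p = 0.02) and Slc7a2 (1.10, adjusted p = 0.043). The C18:3 count was 0 without WT control2 replicate 4 or PPARα-null C18:3 replicate 2, so that all 3 were lost, and 6 without WT control2 replicate 3. It moved more than 1.5-fold in 9 of 18 such cases. For C18:1, C20:5, C18:2 and C10:0 no member passed, with 14, 8, 12 and 13 at an unadjusted p under 0.05 in limma (10.8%, 5.97%, 7.06% and 8.02% of all genes). Past the adjusted threshold, 0.0481% of all genes were lower for C20:5 and 0.016% for C10:0, and 0% for the others.

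In the later run, C18:3 raised 16 members and lowered 9 in PPARα-null liver (6.99% and 5.73% of all genes), and the 6 of 25 mitochondrial carriers that changed were all higher (median 0.20). C10:0 raised 6 and lowered 5 (3.99% and 4.73%). C18:2 raised 1 (0.305% and 0.16%). The C18:3 count of 25 was 13 without C18:3 replicate 5 and 16 without replicate 2, and the C10:0 count of 11 was 3 without C10:0 replicate 1. In the first run, C20:5 gave 0 members in the same genotype, with 9 at an unadjusted p under 0.05 (6.91% of all genes; 0.0321% and 0.0481% passed the adjusted threshold), and C18:1 gave 1 higher and 2 lower (0.93% and 0.61%). The C18:1 count of 3 was 7 without PPARα-null control replicate 3, and the C18:2 count of 1 went from 0, without control2 replicate 2 or C18:2 replicate 1 or 4, to 6, without C18:2 replicate 5.

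Slc39a14 rose in PPARα-null liver, where the agonists had lowered it in WT. It read 9.89, 9.31, 8.68 and 9.18 in PPARα-null control2, 10.02, 10.54, 10.17, 10.18 and 10.60 with C18:3, and 10.61, 10.40, 9.96, 9.95 and 10.36 with C10:0. All triglyceride arrays were above the controls, by 1.04 ± 0.25 (SE; 2.06-fold, adjusted p = 0.0046) and 0.99 ± 0.25 (adjusted p = 0.0077, limma). All 4 of its probesets passed with C18:3, up to 1.86. With C18:2 it was 0.93 (adjusted p = 0.057), and with C10:0 it was 0.80 (adjusted p = 0.063) without control2 replicate 3.

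Slc7a2 showed a like pair of directions. Its brightest probeset read 11.61, 11.93, 11.76 and 11.93 in PPARα-null control2 and 12.25, 12.17, 12.31, 12.58 and 12.31 with C18:3 (0.52, adjusted p = 0.096, limma). A second probeset (1422648_at) read 8.83, 8.94, 8.85 and 8.42 and then 9.75, 9.98, 9.73, 9.95 and 9.98, a rise of 1.12 (adjusted p = 0.00023), and another (1426008_a_at) rose by 1.32 (adjusted p = 0.0016). Directions were then pooled over all treatments, for the members alone and not for all genes. Only Slc25a42 had opposite calls under the same triglyceride. Every other member with opposite calls fell in WT liver with an agonist and rose in PPARα-null liver with a triglyceride. Opposite calls under the same treatment were not seen for those members. In this pooled count, 8 members were raised in one genotype and lowered in the other. Besides Slc39a14, Slc7a2 and Slc25a42, these were Slc17a1 (-1.07 with WY14643 in WT and 1.05 with C18:3 in PPARα-null liver), Slc25a12 (-0.41 and 0.41), Slc25a15 (-1.06 and 0.45), Slc49a4 (-0.48 and 0.38) and Slc38a4. With C18:3 in PPARα-null liver, the second probeset of Slc38a4 rose by 0.27, while its brightest was at -0.01. With C18:3 in PPARα-null liver, Slc17a1 was at 0.61 (adjusted p = 0.25) without control2 replicate 3, Slc25a15 at 0.37 (adjusted p = 0.064) without control2 replicate 1 and Slc49a4 at 0.30 (adjusted p = 0.18) without C18:3 replicate 5.

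Slc25a51, the mitochondrial NAD carrier, read 8.89, 9.76, 8.95 and 9.30 in PPARα-null control2 and 10.37, 10.18, 10.68, 10.60 and 10.54 with C18:3, with no overlap (1.25 ± 0.28, SE, 2.38-fold, adjusted p = 0.0023, limma). All 3 of its probesets passed, up to 1.79. Slc45a3 read 5.12, 3.57, 4.16 and 6.25 in these controls, 6.31, 7.03, 7.17, 4.46 and 7.41 with C18:3, and 7.27, 7.37, 6.53, 7.16 and 6.68 with C10:0. The C10:0 arrays were all above the controls (2.23 ± 0.49, 4.69-fold, adjusted p = 0.0025), while those of C18:3 overlapped (1.70 ± 0.51, adjusted p = 0.021). The 2 Slc45a3 probesets both passed with C10:0. Slc25a30 (1.48), Slc16a5 (1.45, adjusted p = 0.038), the zinc exporter Slc30a1 (0.64) and the purine nucleobase carrier Slc43a3 (0.61) rose with C18:3, and Slc43a3 was the 1 member that rose with C18:2 (0.65, adjusted p = 0.04). Slc43a3 was at 0.59 (adjusted p = 0.23) without C18:2 replicate 4. With C18:3, Slc45a3 was at 1.30 (adjusted p = 0.13) without control2 replicate 2, Slc25a30 at 1.11 (adjusted p = 0.10) without control2 replicate 3 and Slc16a5 at 1.08 (adjusted p = 0.20) without C18:3 replicate 5.

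Slc35d2, Slc12a7 and Slc2a5, lower with C22:6 in the first run, also fell in this run with C18:3 and C10:0. Slc35d2 read 8.73, 8.46, 8.46 and 8.27 in PPARα-null control2, 7.39, 7.13, 7.41, 7.35 and 7.0 with C18:3, and 7.19, 6.62, 8.35, 7.51 and 7.19 with C10:0. The C18:3 arrays were all below the controls (-1.23 ± 0.23, SE, 2.34-fold, adjusted p = 0.00028, limma), and 1 C10:0 array overlapped (-1.11 ± 0.24, adjusted p = 0.0025). Slc12a7 read 8.00, 7.53, 7.60 and 7.68 in these controls, 6.67, 6.76, 6.77, 7.07 and 6.53 with C18:3, and 6.82, 7.26, 7.35, 6.64 and 6.85 with C10:0. Both were below all controls, by 0.94 ± 0.21 (adjusted p = 0.0018) and 0.72 ± 0.21 (adjusted p = 0.023) on the log2 scale. In WT liver Slc12a7 read 7.64, 8.12, 8.10 and 7.94 in control2 and 8.00, 8.01, 8.14, 8.57 and 7.98 with C18:3. In PPARα-null liver the C10:0 value of Slc12a7 was -0.62 (adjusted p = 0.098) without control2 replicate 1.

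Slc2a5 read 6.27, 6.22, 6.08 and 6.16 in PPARα-null control2, 4.91, 5.26, 5.58, 5.47 and 4.59 with C18:3, and 4.37, 5.17, 5.41, 5.16 and 5.07 with C10:0. Every triglyceride array was lower, by 1.02 ± 0.30 (SE; adjusted p = 0.019) and 1.15 ± 0.31 (adjusted p = 0.013, limma). With C18:2 the change of Slc2a5 was -1.02 (adjusted p = 0.077) and with C20:5 in the first run -0.78 (adjusted p = 0.74). Slc13a3, the dicarboxylate carrier, fell with C18:3 from 7.97, 8.15, 7.80 and 8.98 to 7.12, 6.36, 7.30, 7.30 and 7.04 (-1.20 ± 0.32, adjusted p = 0.011). Without 1 array Slc2a5 was at -0.88 (adjusted p = 0.091) with C18:3 and at -0.98 (adjusted p = 0.063) with C10:0, and Slc13a3 at -0.95 (adjusted p = 0.068).

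Markers of other cells were set beside these PPARα-null results of the later run. With C18:3, none of 13 Kupffer cell markers (median -0.07), none of 9 stellate cell and fibroblast markers (median -0.82) and neither lymphocyte marker (median -0.85) passed in limma, while 1 of 8 endothelial and 1 of 9 hepatocyte markers were higher. With C10:0, 1 Kupffer cell marker was higher (median -0.26), 1 stellate cell marker lower (Col3a1, -2.68; median -0.66) and 1 of 2 lymphocyte markers lower (Ighm, -1.89). Among all genes, 6.99% were higher and 5.73% lower with C18:3, and 3.99% and 4.73% with C10:0. Summed stellate cell signal was 2283 to 5230 in PPARα-null control2, 2415 to 3192 with C18:3 and 2236 to 3198 with C10:0, and that of the lymphocyte markers 70 to 314, 67 to 102 and 62 to 84. The part of these cells in the changes of the carriers was not tested.

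**Figure D4:**
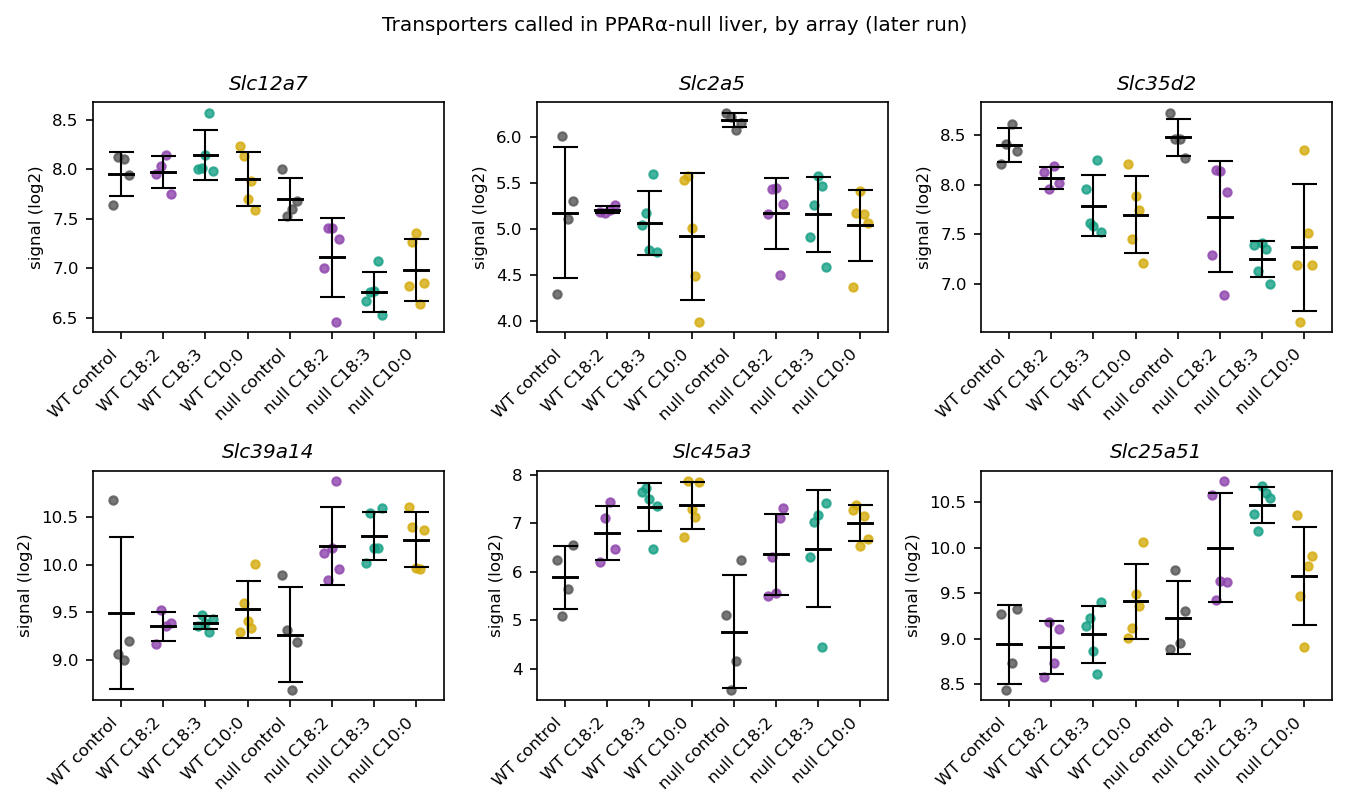
Log2 signal of Slc12a7, Slc2a5, Slc35d2, Slc39a14, Slc45a3 and Slc25a51 on each array of the later run, for WT and PPARα-null mice given control, C18:2, C18:3 or C10:0; points are arrays, lines are group means and bars are ±1 SD. In PPARα-null mice the C18:3 arrays lie below the controls for Slc12a7, Slc2a5 and Slc35d2 and above them for Slc39a14 and Slc25a51.

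Without treatment, PPARα-null and WT livers differed in 15 members in the first run, 8 higher and 7 lower in PPARα-null (5% and 6.03% of all genes), and in 14 in the later run, 5 higher and 9 lower (3.98% and 4.76%). The first count was 5 without WT control replicate 2, and the later one 9 without PPARα-null control2 replicate 4. Slc35g1 was lower in PPARα-null liver in both runs. It read 5.98, 7.24 and 7.34 in WT control and 4.64, 4.36, 3.88, 5.04 and 5.96 in PPARα-null control, and 7.79, 6.57, 7.49 and 7.91 against 4.59, 5.00, 5.96 and 4.68 in control2. The groups were separate in each run, with differences of -2.08 (adjusted p = 0.00044) and -2.38 (adjusted p = 1.9e-05, limma).

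Slc1a2 was higher in PPARα-null liver, at 7.51, 7.46, 7.97, 7.07 and 7.12 against 6.11, 6.62 and 6.22 in the first run, and 8.33, 7.52, 7.74 and 8.56 against 6.91, 7.06, 6.52 and 6.97 in the later one. Neither pair overlapped, with differences of 1.11 (adjusted p = 0.012) and 1.18 (adjusted p = 0.0053, limma). Slc2a5 was higher as well (1.23 and 1.00), as was Slc22a18, a putative carrier of organic cations (0.47 and 0.54). Lower in both runs were Slc3a1 (-1.48 and -1.27), Slc23a2 (-0.76 and -0.91), Slc25a22, a mitochondrial glutamate carrier (-0.86 and -0.72), Slc4a4 (-0.60 and -0.62) and Slc25a30 by 1 of its probesets (1450018_s_at, -1.63 and -1.70). Without WT control replicate 2 the first-run values were 0.66 for Slc2a5 (adjusted p = 0.32), 0.33 for Slc22a18 (adjusted p = 0.19), -1.25 for Slc3a1 (adjusted p = 0.056) and -0.73 for Slc25a22 (adjusted p = 0.10). Without replicate 3 they were -0.64 for Slc23a2 (adjusted p = 0.093) and -0.46 for Slc4a4 (adjusted p = 0.16), and without replicate 1 that of Slc1a2 was 1.0 (adjusted p = 0.065). In the later run, Slc2a5 (0.70, adjusted p = 0.25), Slc25a22 (-0.55, adjusted p = 0.20) and Slc4a4 (-0.55, adjusted p = 0.058) were lost without WT control2 replicate 1, and Slc3a1 (-0.84, adjusted p = 0.17) without PPARα-null control2 replicate 4. The difference of Slc35g1 held in both runs whichever array was left out.

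**Figure D5:**
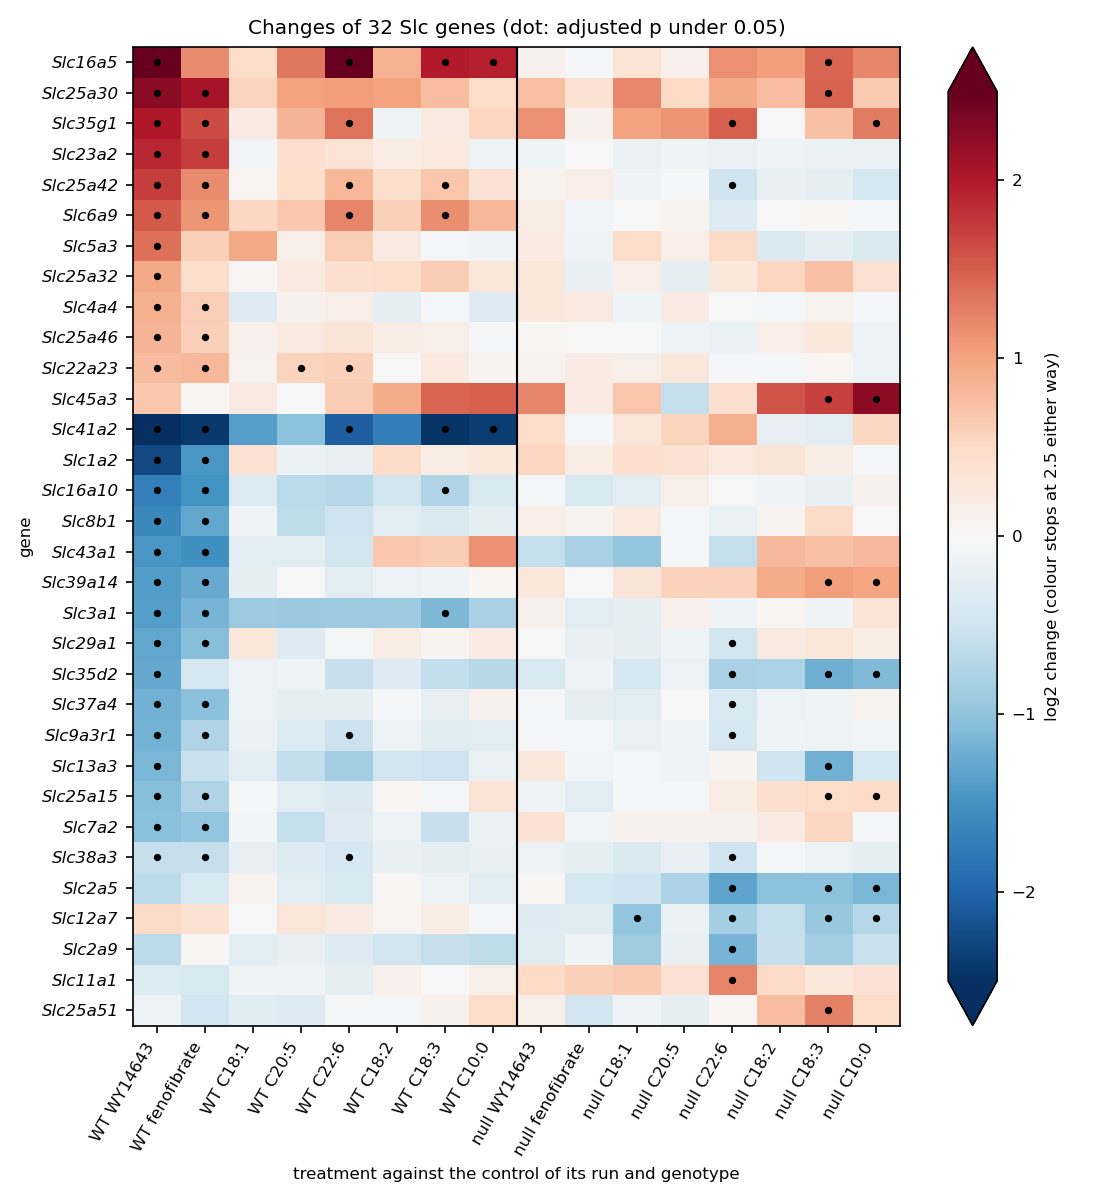
Log2 change of 32 Slc genes (rows) for 8 treatments in WT (left) and 8 in PPARα-null mice (right), each against the control of its run and genotype; colour runs from blue (lower) to red (higher) and stops at 2.5 either way, and a dot marks an adjusted p under 0.05 of the probeset shown. All 32 genes were picked from members that passed in at least 1 of these comparisons, so the dots do not show how often members changed. Most dots lie under WY14643 and fenofibrate in WT and under C22:6 and C18:3 in PPARα-null mice. Further dots lie under C22:6 in WT and C10:0 in PPARα-null mice, among others.

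Counted over the 16 comparisons with controls, 84 of the 120 members changed in at least 1, of which 34 changed in WT liver alone, 26 in PPARα-null liver alone and 24 in both. This tally was not made for all genes, so it does not set the members apart from them. A call in a single genotype does not by itself show a difference between genotypes, which the interaction tests above address. The remaining 36 passed in none of the 16. They included the monocarboxylate family member Slc16a12 (-0.35 with WY14643 in WT, adjusted p = 0.40) and the phosphate carrier family member Slc17a2 (-0.47, adjusted p = 0.079). The nucleotide sugar carrier Slc35d1 (-0.39, adjusted p = 0.063) and the acetyl-CoA carrier Slc33a1 (-0.46, adjusted p = 0.061, limma) also passed in none. The ATP/ADP carriers Slc25a4 and Slc25a5 and the phosphate carrier Slc25a3 of mitochondria were among them, as were Slc38a2 and Slc3a2 for amino acids.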

How the data were processed

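RNA of 93 mouse livers was hybridised to Affymetrix Mouse Genome 430 2.0 arrays, 1 array per sample. The deposited values are linear probeset intensities that the authors obtained with GC-RMA (GCRMA 2.20 in the submitters' processing notes), an empirical Bayes background adjustment, with quartile normalization, after leaving out probesets of low variation. Depth does not apply to arrays, and their number limits the precision. Of 11463 deposited probesets, 51 controls were left out. Of the other 11412, 10279 carried 1 gene symbol in the platform annotation, 406 several and 727 none.

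Intensities were log2 transformed, and 10349 probesets with an interquartile range of at least 0.25 log2 units over the arrays other than C10:0 were fitted with limma 3.58.1 (R 4.3.3, data.table version 1.17.8) on group means over all arrays of both runs. C10:0 entered the fit only for its own comparisons. P-values were adjusted by Benjamini-Hochberg over all probesets within a comparison. The threshold was an adjusted p of 0.05. At the study's unadjusted p of 0.01, 53 members changed with WY14643 in WT liver (44.2% of them, against 28.5% of all genes). Tables and figures were made in Python 3.11.15 with pandas 2.3.3 and matplotlib 3.10.9, and the fit was tested on simulated data.

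Genes named are, per comparison, up to 10 rises and 10 falls of largest change, up to 5 each way for interactions and direct comparisons, up to 10 each way for genotype differences of like direction in both runs, and the gene of highest mean signal in each class. Smaller changes given beside these were chosen after their values were seen. Members and lists were chosen with earlier results of these data known, and 2 classes were completed after the members were listed. The labels do not say that replicate numbers mark a shared litter or day. Deviations of arrays with the same number correlated above 0.1 in every pair (0.112 to 0.304) for WY14643 in PPARα-null mice and for no other comparison. No 2 arrays were identical, the highest correlation between arrays being 0.9904. Alternatives were no filter, a filter on dim probesets, quantile normalization, a fit on the compared groups alone, a replicate block and leaving out each array.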

Additional observations from a re-analysis of the deposited data

Results flagged for a closer look

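For several carriers the response differed between WT and PPARα-null liver by the interaction test, given here as the PPARα-null response minus the WT response on the log2 scale. With WY14643 there were 37 such genes, led by Slc16a5 (-2.93), Slc23a2 (-1.98), Slc25a42 (-1.65), Slc6a9 (-1.35) and Slc25a17 (-0.85) on one side, and by Slc41a2 (4.12), Slc1a2 (2.79), Slc8b1 (1.79), Slc39a14 (1.68) and Slc16a10 (1.68) on the other. With fenofibrate there were 16, among them Slc23a2 (-1.73), Slc6a9 (-1.16), Slc25a42 (-1.02), Slc22a23 (-0.64), Slc25a46 (-0.61), Slc1a2 (1.64), Slc8b1 (1.36), Slc66a1 (1.34), Slc39a14 (1.26) and Slc16a10 (1.09). With C22:6 there were 7, namely Slc6a9 (-1.56), Slc25a42 (-1.33), Slc12a7 (-1.06), Slc22a23 (-0.62), Slc25a46 (-0.50), Slc11a1 (1.44) and Slc41a2 (2.96). With C18:3 there were 3, Slc12a7 (-1.13), Slc25a42 (-0.95) and Slc7a2 (1.10). Slc25a42 was on the list of all 4 treatments.

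Among 100 groups of 4 or 5 arrays whose values are printed, 3 arrays stood far from the others of their group. For Slc25a30 the lowest fenofibrate array in WT liver was at 9.19 where the others read 9.59 to 9.76. For Slc12a7 the highest C18:3 array in WT liver was at 8.57 where the others read 7.98 to 8.14. For Slc13a3 the lowest C18:3 array in PPARα-null liver was at 6.36 where the others read 7.04 to 7.30. Chance gives such an array in about 1 of 20 groups.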

How the results depend on the processing

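Over 267 calls of single genes by the probeset that stood for the gene, none changed direction under any alternative. Without the filter, and with a filter on dim probesets, 264 calls held in each, and 250 held with quantile normalization, which moved the median of all genes by less than 0.1 in every comparison. The number of members called after quantile normalization was 0 for C18:2 and 1 for C10:0 in WT, and 6 for C18:1 and 0 for C18:2 in PPARα-null liver. It also moved the share of higher among all called genes from 65% to 53.4% for C18:1 and from 63.2% to 50% for C18:2 in PPARα-null liver. For C10:0 in PPARα-null liver it went from 44.9% to 54.2%, so that most calls were lower before and higher after.

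Fitting only the compared groups, with fewer arrays to estimate the spread, kept 117 calls. Members called in that fit were 0 for C20:5, C22:6, C18:2, C18:3 and C10:0 in WT and for C18:1, C22:6 and C18:2 in PPARα-null liver, 9 for C18:3 and 1 for C10:0 in PPARα-null liver, 2 and 1 for the interactions of C22:6 and C18:3, 4 and 3 for the genotypes untreated in the first and later run, 0 for C20:5 against C18:1 and 6 for WY14643 against fenofibrate.

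With the replicate number as a block in that fit, 72 calls held. Members called with the block were 29 for WY14643 and 1 for fenofibrate in WT, 0 for C20:5, C22:6, C18:2, C18:3 and C10:0 in WT, and 0 for C22:6, C18:2, C18:3 and C10:0 in PPARα-null liver. The block left 1 gene for the C22:6 interaction, 0 for that of C18:3, 0 and 2 for the untreated genotypes in the first and later run, and 0 for C20:5 against C18:1. For WY14643 in PPARα-null liver, where the numbers correlated in every pair, it gave 0 as before.

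With each array left out in turn, the members called ranged in WT from 40 to 51 for WY14643, 25 to 28 for fenofibrate, 0 to 1 for C18:1, 0 to 1 for C20:5, 5 to 12 for C22:6, 0 to 4 for C18:2, 4 to 10 for C18:3 and 0 to 5 for C10:0. In PPARα-null liver they ranged from 0 to 1 for WY14643, 1 to 7 for C18:1, 8 to 41 for C22:6, 0 to 6 for C18:2, 13 to 28 for C18:3 and 3 to 16 for C10:0, and were 0 throughout for fenofibrate and C20:5. Interactions ranged from 27 to 38 for WY14643, 10 to 20 for fenofibrate, 1 to 13 for C22:6 and 0 to 6 for C18:3. The untreated genotypes gave 5 to 16 and 9 to 17. Direct comparisons gave 3 to 8 for C22:6 against C18:1, 1 to 3 for C20:5 against C18:1 and 0 to 2 for WY14643 against fenofibrate. The lowest counts came without WT control replicate 2 for C22:6 in WT (5), the fenofibrate and C22:6 interactions (10 and 1) and the first untreated comparison (5). They came without WT control2 replicate 1 or C18:3 replicate 5 for C18:3 in WT (4), and without C10:0 replicate 5 for C10:0 in WT (0). In PPARα-null liver they came without replicate 2 of C22:6 (8), replicate 5 of C18:3 (13) and replicate 1 of C10:0 (3).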

Other observations

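Transporters whose symbol does not begin with Slc and a digit, such as ABC pumps and organic anion transporters with Slco symbols, were looked at beside the members. Of 40 listed, 24 were tested. With WY14643 in WT liver, 4 were higher and 9 lower, with a median change of -0.17, where 12.9% and 17.5% of all genes were higher and lower. With fenofibrate 1 was higher and 2 lower (7.88% and 7.91% of all genes). The efflux pump Abcg2 rose by 0.99 with WY14643 (adjusted p = 1.2e-07, limma). Abcc3, a basolateral pump for organic anions (0.60), and Abcb4, the phospholipid floppase of the bile canaliculus (0.54), rose as well. Lower were Slco1a4, an uptake carrier of organic anions (-1.68, adjusted p = 0.00016), the pump Abcc6 (-1.25) and both members of the sterol exporter, Abcg5 (-1.0) and Abcg8 (-1.04). In PPARα-null liver, 1 rose and 4 fell with C22:6 (7.11% and 10.5% of all genes), 2 fell with C18:3 (5.73% lower) and 3 with C10:0 (4.73% lower).

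A probeset of low signal, such as those of Slc16a5, Slc5a3 and Slc43a1 in controls, gives a fold change that depends on the background adjustment made before deposit. The first run had 3 WT control arrays, so that 1 of them weighs on every WT comparison of that run. RNA levels say nothing of transport activity or of protein at a membrane.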
